A study of Rattus norvegicus with 9 samples.

Results

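The glucocorticoid receptor gene Nr3c1 was examined in the rat superior mesenteric artery (SMA) together with 8 further genes of its pathway. These were the mineralocorticoid receptor Nr3c2, the steroid-converting enzymes Hsd11b1 and Hsd11b2, the receptor's induced targets Fkbp5, Tsc22d3, Sgk1 and Zbtb16, and the co-chaperone Fkbp4. The members were chosen by gene symbol from knowledge of the pathway, with earlier results of these data known. All 9 of them were found among the 37203 symbols of the count table. Of these, 8 passed the filter on low counts and were among the 15482 genes tested, while Hsd11b2, with 35 counts over all libraries, was not. Fkbp4 served as a comparison gene, because its protein shares the receptor complex with that of Fkbp5 without being a classic induced target.

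The SMA, the vessel that supplies most of the small intestine, was taken from 8-week-old Sprague-Dawley rats of 220 to 240 g, in 3 groups of 3 libraries called normal, 1 h ischemia and 4 h ischemia. Ischemia was a hemorrhage model, in which anaesthetised rats were bled through the right femoral artery and time was counted once the model stood. Whether the normal rats were anaesthetised and catheterised is not given in the sources used here, so blood loss and the procedure around it cannot be told apart. The hour at which vessels were taken and the hormone levels in blood are not given there either.

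Without hormone the glucocorticoid receptor sits in the cytoplasm in a complex with Hsp90 and immunophilins, and once it has bound glucocorticoid it moves to the nucleus and switches target genes on or off. Fkbp5 codes for FKBP51, which lowers hormone binding in that complex and is itself induced by the receptor, and Fkbp4 codes for FKBP52, which favours transport to the nucleus. The enzyme of Hsd11b1 regenerates active glucocorticoid inside cells, whereas that of Hsd11b2 inactivates it and thereby leaves the mineralocorticoid receptor of the kidney to aldosterone. In the vessel wall both receptors are known for effects on tone and inflammation.

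The best known target site of the receptor is a palindrome. Sgk1 and Tsc22d3 have 3 annotated starts each, and counts per gene symbol belong to no single start. Stretches upstream of 1 start each are shown for 3 induced members. They are the 250 bases before an annotated transcription start, 5′ to 3′ on the minus strand of RefSeq assembly GRCr8, at chr20:6543556-6543805 for Fkbp5, chr1:24804832-24805081 for Sgk1 and chrX:109065431-109065680 for Tsc22d3. Capitals mark the core palindrome ACANNNTGT, the TATA box TATAAA and the GC box GGGCGG, each on either strand.
Fkbp5: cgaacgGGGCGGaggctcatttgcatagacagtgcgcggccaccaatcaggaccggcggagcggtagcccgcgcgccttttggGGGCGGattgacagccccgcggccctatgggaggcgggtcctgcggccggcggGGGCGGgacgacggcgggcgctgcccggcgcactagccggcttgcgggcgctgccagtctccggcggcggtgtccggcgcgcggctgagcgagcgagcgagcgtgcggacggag
Sgk1: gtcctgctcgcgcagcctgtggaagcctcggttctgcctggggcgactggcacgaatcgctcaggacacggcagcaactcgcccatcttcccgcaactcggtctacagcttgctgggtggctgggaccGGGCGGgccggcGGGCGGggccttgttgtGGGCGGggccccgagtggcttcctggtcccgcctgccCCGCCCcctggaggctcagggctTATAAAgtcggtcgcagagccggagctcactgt
Tsc22d3: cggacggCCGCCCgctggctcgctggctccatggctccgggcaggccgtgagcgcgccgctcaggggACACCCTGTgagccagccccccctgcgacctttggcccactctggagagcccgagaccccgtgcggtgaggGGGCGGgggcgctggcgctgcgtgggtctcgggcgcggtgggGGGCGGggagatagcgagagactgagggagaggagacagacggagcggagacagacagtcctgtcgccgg

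RefSeq held 10 windows for 5 members (Nr3c1, Fkbp5, Tsc22d3, Sgk1 and Fkbp4), each of 300 bases from 250 before a start to 50 from it on. The full palindrome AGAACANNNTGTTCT stood in 0 of the 10 and in 0.0149% of all 33469 windows of that length. Its core ACANNNTGT, which is contained in the full palindrome, stood in 1 of the 10, as ACACCCTGT at -183 to -175 from the Tsc22d3 start shown here, and in 6.86% of all windows. The single arm AGAACA stood in 0 of the 10 and in 20.7% of all. A TATA box stood in 3 of the 10 windows against 14.2% of all, and in the Sgk1 stretch it lay at -33 to -28. GC boxes were found in 8 of the 10 windows and in 33.1% of all, and the 3 stretches had a GC content of 76% (Fkbp5), 69.6% (Sgk1) and 74.4% (Tsc22d3). The starts shown were the most GC-rich of Sgk1 and Tsc22d3. Windows at their other starts had 40.7% and 51.7% (Sgk1) and 52.0% and 50.7% (Tsc22d3), beside a median of 51.7% over all windows. The motif counts are matches of letters in a short window and say nothing of sites farther away.

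The libraries held 13114273 to 15504240 counts each, and levels are given as CPM (counts scaled to a common library size, here after TMM scaling), 1 CPM being 12.1 to 17.9 counts. Every pair of libraries differed by far more than sampling noise (chi-square of at least 23.2 per degree of freedom). Smooth muscle markers, which define the labelled vessel, summed to between 11970 and 71830 CPM in a library. The summed level of 14 sympathetic neuron genes, among them the noradrenaline enzyme genes Th and Dbh, was 8583 and 8708 CPM in replicates 1 and 3 at 1 h and 8574 CPM in replicate 3 at 4 h, but 37.2 to 944 CPM in the other 6 libraries. These 3 libraries stood apart and belong to the ischemia groups, so log2 fold changes of the members are also given without them, a choice made after seeing the data that leaves a single library at 1 h, assumed to vary like the other groups. That library is replicate 2, so each 1 h value without the 3 rests on its level alone. In bulk tissue fewer cells of a type and less RNA per cell cannot be told apart.

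**Figure D1:**
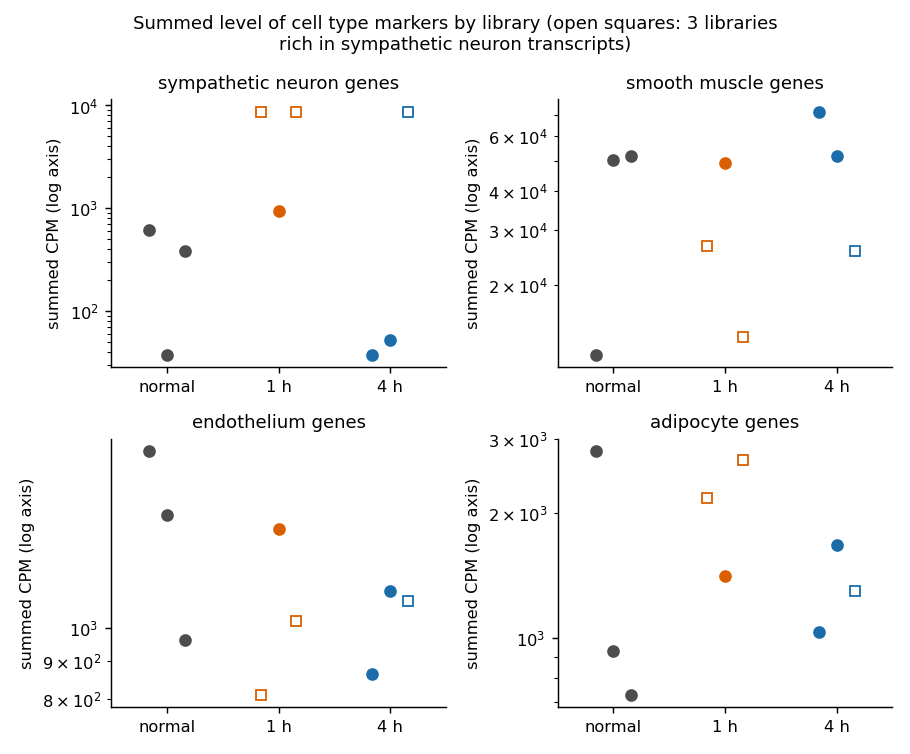
Summed level of the marker genes of 4 cell types in each of the 9 libraries (CPM, log axis), with libraries ordered by group and replicate. Sympathetic neuron transcripts lay at 8574 to 8708 CPM in 3 ischemia libraries and at 37.2 to 944 CPM in the others.

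The receptors themselves were examined first. Nr3c1, the glucocorticoid receptor, was at 193, 147 and 180.4 CPM in normal SMAs, at 120.3, 152 and 94.7 CPM at 1 h, and at 145, 177 and 131 CPM at 4 h. The 1 h libraries reached into the normal range in replicate 2 and lay below it in the others, and the 4 h libraries overlapped the normal ones. Against 173 ± 23.9 CPM (SD, n = 3) in normal SMAs the mean was 122.5 ± 29.0 at 1 h and 151 ± 23.8 at 4 h. The log2 fold change was -0.50 at 1 h (SE 0.23, unadjusted p = 0.0589, adjusted p = 0.309) and -0.20 at 4 h (SE 0.23, adjusted p = 0.741), so neither passed. Without the 3 neuron-rich libraries the values were -0.17 and -0.084, the former resting on replicate 2 at 1 h alone, the highest at that time. Leaving out any single library gave -0.69 (without that one) to -0.36 at 1 h and -0.33 to -0.10 at 4 h. In edgeR the unadjusted p at 1 h was under 0.05 in 2 of those 9 fits, and none passed the adjustment.

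Nr3c2, the mineralocorticoid receptor, binds glucocorticoid with high affinity, and where Hsd11b2 is lacking that hormone is not inactivated. Nr3c2 was at 26.6, 43.5 and 33.4 CPM in normal SMAs, at 23.8, 40.9 and 25.9 CPM at 1 h, and at 47.6, 49.5 and 33.7 CPM at 4 h. The ranges of all 3 groups overlapped. The log2 fold change was -0.19 at 1 h (SE 0.28, adjusted p = 0.731) and 0.34 at 4 h (SE 0.28, adjusted p = 0.641), and the values were 0.25 and 0.51 without the neuron-rich libraries. The 0.25 rested on replicate 2 at 1 h, and leaving out that library instead gave -0.48 at 1 h. Across the 9 libraries log2 CPM of Nr3c2 went with the mean log2 CPM of the smooth muscle markers. Pearson's r was 0.828 (exact permutation p = 0.00829, adjusted over 32 relations 0.109) and Spearman's rho 0.667 (exact permutation p = 0.0589, adjusted 0.608). The r was 0.787 without the 2 libraries farthest from the median smooth muscle level and 0.809 after group means were removed, and the relation did not pass the adjustment. Nr3c2 also ran opposite to the adipocyte markers (r = -0.796, exact permutation p = 0.0154, adjusted 0.123, and rho = -0.633, exact permutation p = 0.076, adjusted 0.608), with an r of -0.615 without the 2 libraries farthest from the median. Against the sympathetic neuron markers r was -0.82 (exact permutation p = 0.0102, adjusted 0.109) and rho -0.783 (exact permutation p = 0.0172, adjusted 0.276). That r was -0.747 without the 2 libraries farthest from the median and -0.86 after group means were removed. In the 3 neuron-rich libraries Nr3c2 was at 23.8, 25.9 and 33.7 CPM, against 26.6 to 49.5 CPM in the other 6. The relations to the 3 marker groups cannot be told apart here.

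The enzymes that set active hormone inside the cell were low in counts. Hsd11b1 was at 6.94, 5.04 and 4.95 CPM in normal SMAs, at 3.28, 8.62 and 6.82 CPM at 1 h, and at 5.13, 8.87 and 5.15 CPM at 4 h, which is 49 to 129 counts per library. At 1 h replicate 1 lay below all normal libraries and replicate 2 above them, and at 4 h replicate 2 lay above them while the others fell inside the normal range. In log2 terms the difference was 0.14 at 1 h (SE 0.41, adjusted p = 0.866) and 0.18 at 4 h (SE 0.41, adjusted p = 0.886), and without the neuron-rich libraries the values were 0.63 and 0.33. Hsd11b2 had 4, 0 and 0 counts in normal SMAs, 6, 2 and 13 counts at 1 h, and 2, 0 and 8 counts at 4 h. A count of 0 allowed up to 0.219 and 0.222 CPM in the normal libraries concerned and 0.249 CPM in the one at 4 h, counting error only. Hsd11b2 did not pass the filter on low counts, so no group difference is given for it. Its highest counts, 6 and 13 at 1 h and 8 at 4 h, were those of the neuron-rich libraries. H6pd, whose enzyme supplies the cofactor for the activating direction of the Hsd11b1 enzyme, had means of 25.1 CPM in normal SMAs, 43.1 at 1 h and 37.6 at 4 h (log2 fold changes 0.78, SE 0.39, and 0.58, SE 0.39, adjusted p = 0.327 and 0.571). Its 1 h value was 1.41 without the neuron-rich libraries, where replicate 2 stands alone, and 0.34 without replicate 2 at 1 h.

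Of the induced targets, Sgk1, Fkbp5 and Zbtb16 had higher levels in every ischemia library than in any normal one, and Tsc22d3 did so at 4 h, but none was called by edgeR. Sgk1, a kinase that regulates sodium channels and pumps and is induced by both receptors, had the smallest p of the members. It was at 51.3, 38.4 and 31.4 CPM in normal SMAs, at 126, 145 and 149.6 CPM at 1 h, and at 76.3, 149 and 134 CPM at 4 h. All 6 ischemia libraries lay above all 3 normal ones, with replicate 1 at 4 h nearest to them. The mean went from 40.4 ± 10.1 CPM to 140.3 ± 12.7 at 1 h and 119.8 ± 38.3 at 4 h (SD, n = 3 each), a 3.47-fold and a 2.97-fold difference. The log2 fold change was 1.80 at 1 h (SE 0.29, unadjusted p = 0.000223, adjusted p = 0.117) and 1.57 at 4 h (SE 0.29, unadjusted p = 0.000538, adjusted p = 0.0808). By unadjusted p Sgk1 ranked 26 and 103 among the 15482 genes. Leaving out any single library gave 1.64 to 2.01 at 1 h and 1.38 to 1.79 at 4 h, and without the neuron-rich libraries the values were 1.87 and 1.51.

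Fkbp5 was at 32.6, 89.2 and 31.2 CPM in normal SMAs, at 118, 400.3 and 294 CPM at 1 h, and at 267, 203 and 177 CPM at 4 h. All ischemia libraries were above the normal ones, although replicate 1 at 1 h came close to normal replicate 2, which stood apart from the other normal libraries. Against 51.0 ± 33.1 CPM in normal SMAs the mean was 271 ± 143 at 1 h and 216 ± 46.3 at 4 h (SD, n = 3 each), that is 5.30-fold and 4.23-fold higher. Fitted log2 fold changes were 2.41 at 1 h (SE 0.56, unadjusted p = 0.00236, adjusted p = 0.188) and 2.08 at 4 h (SE 0.55, unadjusted p = 0.0051, adjusted p = 0.187). Normal replicate 2 weighed on both, which were 3.08 and 2.77 without it, and without the neuron-rich libraries they were 2.98 and 2.22. The 2.98 rested on replicate 2 at 1 h alone, the highest library. With any single library left out, the lowest values were 2.01 at 1 h (without that library) and 1.825 at 4 h (without normal replicate 3).

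Zbtb16 codes for PLZF, a zinc finger repressor that is induced by glucocorticoid in many cell types. It was at 3.13, 48.2 and 13.9 CPM in normal SMAs, at 74.3, 199 and 87.2 CPM at 1 h, and at 142.5, 139 and 120.6 CPM at 4 h. The ischemia libraries did not overlap the normal ones, among which replicate 2 was again the highest and replicate 1 far lower. The mean was 21.8 ± 23.6 CPM in normal SMAs, 120.3 ± 68.8 at 1 h and 134 ± 11.8 at 4 h (SD, n = 3 each). On the log2 scale the differences were 2.47 at 1 h (SE 0.84, unadjusted p = 0.0183, adjusted p = 0.26) and 2.63 at 4 h (SE 0.85, unadjusted p = 0.0141, adjusted p = 0.264), or 5.53-fold and 6.17-fold. Without normal replicate 2 these were 3.79 and 3.96, and without the neuron-rich libraries 3.20 and 2.70. The 3.20 rested on replicate 2 at 1 h alone, the highest library. With any single library left out, the lowest values were 1.89 at 1 h (without that library) and 2.11 at 4 h (without normal replicate 1). The unadjusted p was 0.0637 at 1 h and 0.052 at 4 h without normal replicate 3, and 0.0654 at 1 h without replicate 2 at 1 h.

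Tsc22d3 codes for GILZ, a leucine zipper protein that restrains NF-kB and AP-1. It was at 180.2, 198 and 214 CPM in normal SMAs, at 186, 373 and 310.1 CPM at 1 h, and at 322, 421 and 248 CPM at 4 h. Replicate 1 at 1 h lay inside the narrow normal range, whereas all 3 libraries at 4 h lay above it. The mean went from 197 ± 16.8 CPM to 289.7 ± 94.8 at 1 h and 330.3 ± 86.7 at 4 h (SD, n = 3 each). Fitted log2 fold changes were 0.55 at 1 h (SE 0.30, unadjusted p = 0.101, adjusted p = 0.344) and 0.74 at 4 h (SE 0.30, unadjusted p = 0.0376, adjusted p = 0.362). Without the neuron-rich libraries both were 0.93, but the 1 h value then rested on replicate 2 alone, the highest at 1 h. Leaving out any single library gave 0.33 (without that replicate) to 0.79 at 1 h and 0.53 to 0.91 at 4 h.

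**Figure D2:**
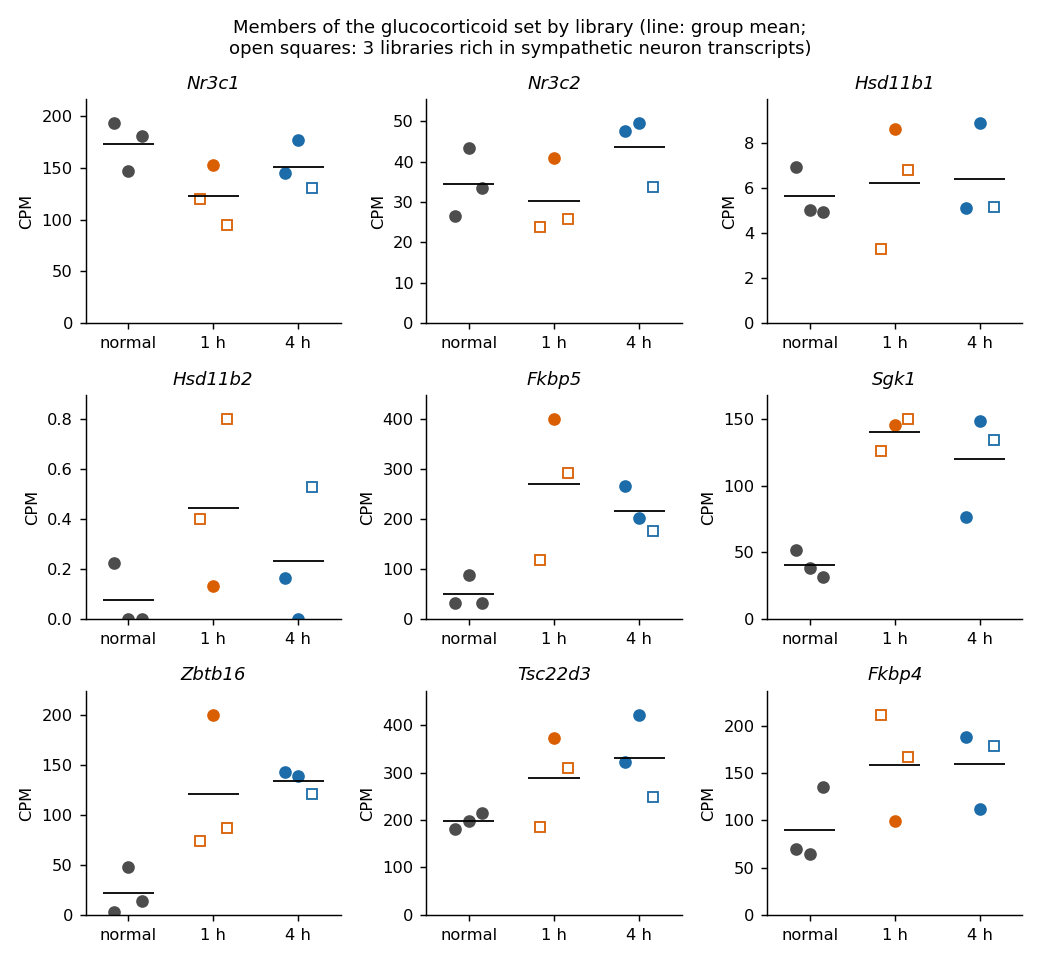
Level of the 9 genes in each library (CPM, linear axes starting at 0, one panel per gene), with a line at each group mean and open squares for the 3 libraries rich in sympathetic neuron transcripts. Sgk1, Fkbp5 and Zbtb16 were above all normal libraries in all 6 ischemia libraries, and Hsd11b2 stayed below 1 CPM.

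Fkbp4 was at 70.0, 64.3 and 135 CPM in normal SMAs, at 211, 99.5 and 166 CPM at 1 h, and at 188, 112 and 178 CPM at 4 h. Normal replicate 3 lay above replicate 2 of both ischemia groups, so the groups overlapped at both times. The mean was 89.9 ± 39.5 CPM in normal SMAs, 159 ± 56.2 at 1 h and 159 ± 41.5 at 4 h (SD, n = 3 each). The log2 fold change was 0.82 at 1 h (SE 0.39, adjusted p = 0.312) and 0.83 at 4 h (SE 0.39, adjusted p = 0.435), and without the neuron-rich libraries the values were 0.15 and 0.74. The 0.15 rested on replicate 2 at 1 h, the lowest at that time. Leaving out any single library gave 0.565 to 1.24 at 1 h and 0.63 to 1.25 at 4 h. The comparison gene was thus also higher on average, and whether its difference is smaller than that of Fkbp5 was not tested. Across the 9 libraries Fkbp4 was low where the endothelial markers were high. Pearson's r was -0.844 (exact permutation p = 0.00471, adjusted over 32 relations 0.109) and Spearman's rho -0.85 (exact permutation p = 0.00607, adjusted 0.194), neither of which passed the adjustment. The r was -0.768 without the 2 libraries farthest from the median endothelial level and -0.843 after group means were removed.

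**Figure D3:**
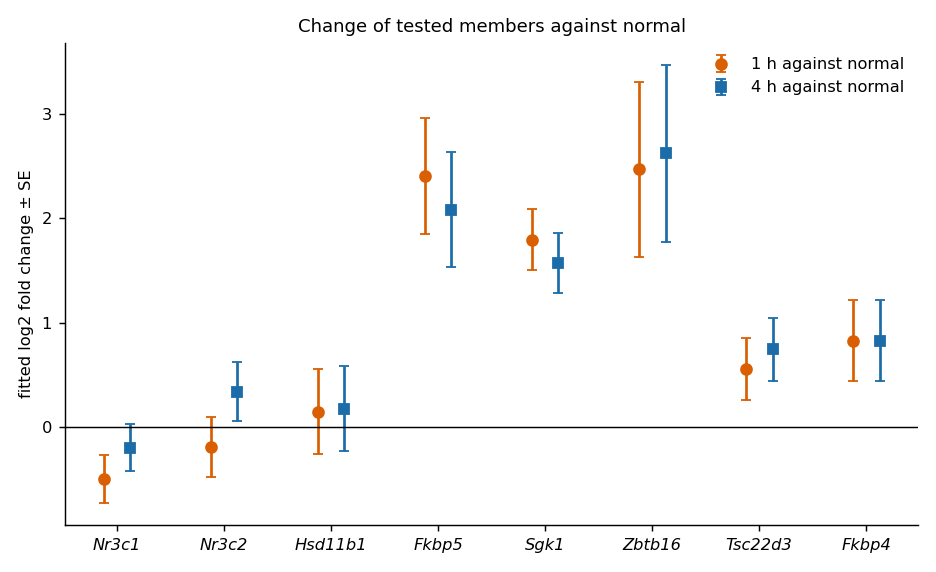
Log2 fold change against normal (points, edgeR) with its SE (bars) at 1 h and 4 h for the 8 genes tested. Zbtb16, Fkbp5 and Sgk1 lay between 1.57 and 2.63 at both times, and Nr3c1 at -0.50 and -0.20.

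Counted together, 0 of the 8 tested genes were called at 1 h or at 4 h by the edgeR quasi-likelihood test, a call requiring a fold change over 1.5 and an adjusted p under 0.05. Few genes of any kind were called, 0.0581% of all tested at 1 h and 0.0904% at 4 h. At an unadjusted p under 0.05, 3 of the 8 were higher at 1 h (Sgk1, Fkbp5 and Zbtb16) against 7.98% of all genes, and 0 were lower against 8.67%. At 4 h, 4 of the 8 were higher (with Tsc22d3) against 5.07% of all genes, and 0 were lower against 7.35%. The same 3 and 4 genes had all ischemia libraries above all normal ones, which held for 12.8% of all genes at 1 h and 7.93% at 4 h, and 0 of the 8 had all of them below, which held for 13.5% and 10.8%. The median log2 fold change of the 8 was 0.69 at 1 h and 0.79 at 4 h, beside -0.0076 and 0.027 over all genes. The 8 genes and the lists that follow were chosen with earlier results of these data known, so these shares are a description and no test. DESeq2, which called 702 and 610 genes, called Sgk1, Fkbp5 and Zbtb16 at both times. Its adjusted p at 1 h was 1.47e-06 for Sgk1, 0.00117 for Fkbp5 and 0.0379 for Zbtb16. At 4 h it was 3.71e-05, 0.00704 and 0.025.

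**Figure D4:**
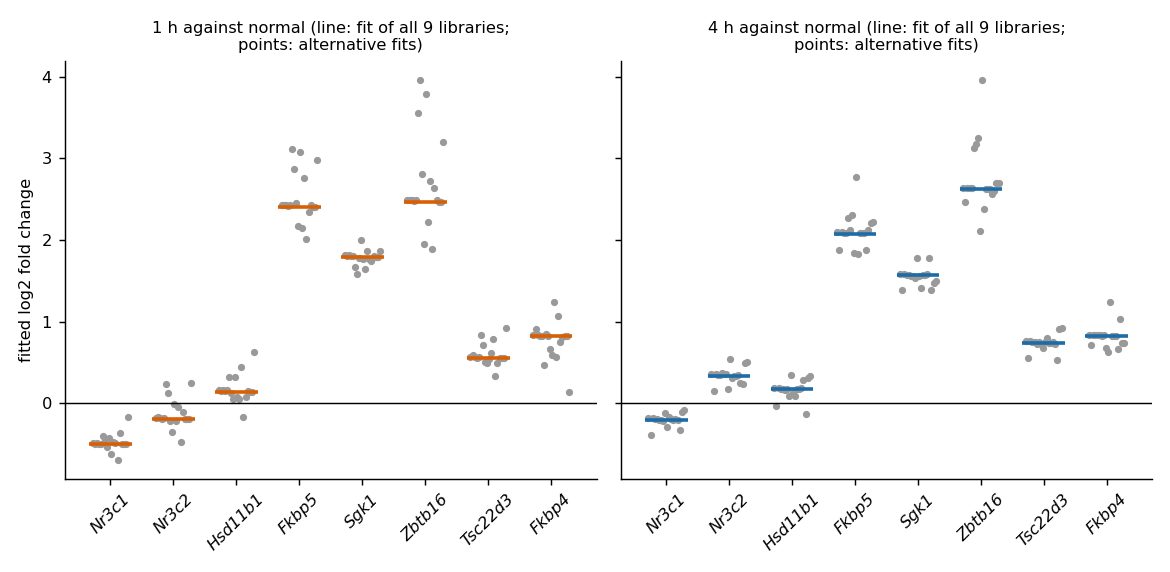
Log2 fold change against normal of the 8 tested genes (lines) and the same value under the alternative fits (points). Those of Sgk1, Fkbp5 and Zbtb16 stayed above 0 in every fit, and those of Nr3c2 at 1 h lay on both sides of 0.

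Between 4 h and 1 h, 0 of the 8 genes were called by edgeR or DESeq2 and 0 had an unadjusted p under 0.05 in edgeR. Over all genes 0% were called and 2.58% had such a p, in either direction. The log2 differences, 4 h minus 1 h, were 0.30 for Nr3c1 (SE 0.23), 0.53 for Nr3c2 (SE 0.28) and 0.032 for Hsd11b1 (SE 0.41). Those of the targets were -0.33 for Fkbp5 (SE 0.53), -0.23 for Sgk1 (SE 0.28), 0.16 for Zbtb16 (SE 0.80) and 0.19 for Tsc22d3 (SE 0.30), and that of Fkbp4 was 0.0035 (SE 0.39). Adjusted p-values ran from 0.856 to 0.997. The SE of Zbtb16 leaves room for a difference of a few fold in either direction, so equal levels at the 2 times were not shown.

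The other targets of the receptor were counted from a list of 27 further genes, of which 26 were tested (Tat was not). At an unadjusted p under 0.05, 15 of the 26 were higher and 0 lower at 1 h (7.98% and 8.67% of all genes), and the same numbers held at 4 h (5.07% and 7.35% of all genes). Their median log2 fold change was 1.26 at 1 h and 1.41 at 4 h, and 23 and 22 of them lay above 0. Nfkbia, the inhibitor of NF-kB, was at 125, 94.1 and 103 CPM in normal SMAs, at 495, 659 and 483 CPM at 1 h, and at 514.5, 891 and 690 CPM at 4 h. It rose from 107.4 ± 15.9 CPM to 546 ± 98.3 at 1 h and 698 ± 188 at 4 h (SD, n = 3 each). Its log2 fold change was 2.35 at 1 h (SE 0.28, adjusted p = 0.0454) and 2.70 at 4 h (SE 0.28, adjusted p = 0.0247), and it is also a target of NF-kB. Its call was lost at 1 h in all 9 fits that each left out 1 library (log2 fold change 2.19 to 2.47, adjusted p from 0.0652 to 0.35) and held at 4 h in 3 of 9 (2.49 to 2.85, 0.0348 to 0.162). Mt1a, a metallothionein with near-identical copies whose counts are therefore uncertain, rose by 5.53 on the log2 scale at 1 h (SE 0.62, adjusted p = 0.0424) and was 4.20 higher at 4 h (SE 0.59, adjusted p = 0.0606). Its call at 1 h held in 1 of those 9 fits, the one without replicate 1 at 1 h (adjusted p from 0.0119 to 0.29 over the 9). These were the only called genes of the list. Mt2A, another metallothionein, was 5.74 higher at 1 h (SE 0.77, adjusted p = 0.0831). Cebpb, a transcription factor of the acute phase, was 2.97 higher at 1 h (SE 0.49, adjusted p = 0.117) and 3.54 at 4 h (SE 0.50, adjusted p = 0.0614), and Cdkn1a, the cell cycle inhibitor p21, was 4.14 higher at 4 h (SE 0.65, adjusted p = 0.0701). Per1, Klf9 and Klf15 are further targets on the list, named after their values were seen. Klf15 was at 105, 127 and 108 CPM in normal SMAs and at 68.4, 113 and 71.9 CPM at 1 h. At 4 h it was at 154, 164.5 and 85.8 CPM, on both sides of the normal range. Per1, a clock gene, was 0.72 higher at 1 h (SE 0.28, adjusted p = 0.28) and 1.55 at 4 h (SE 0.28, adjusted p = 0.0789), and Klf9 was 0.55 and 1.00 higher (SE 0.36 each, adjusted p = 0.411 and 0.316). The 1 h value of Klf9 depended on replicate 2 at 1 h. It was 1.23 without the neuron-rich libraries, where that replicate stands alone, and 0.054 without that replicate. Many genes of this list also answer to stress or inflammatory signals, and the part of the receptor in their levels was not measured.

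**Figure D5:**
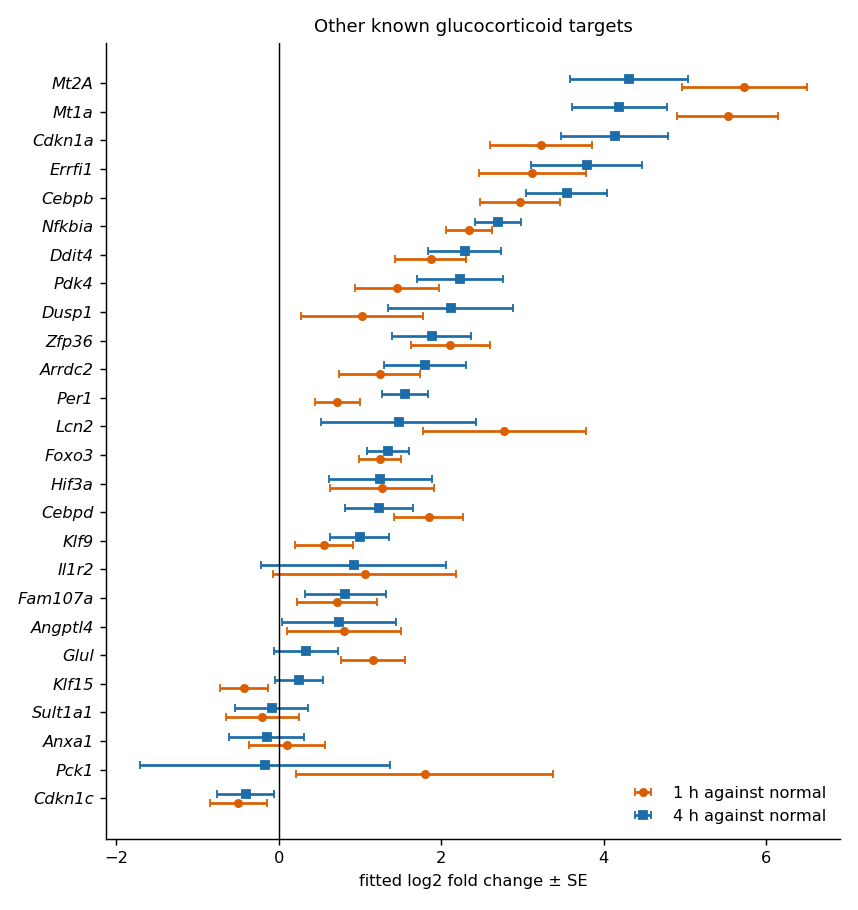
Log2 fold change against normal (points, edgeR) with its SE (bars) at 1 h and 4 h for 26 further targets of the receptor. Of these, 23 lay above 0 at 1 h and 22 at 4 h, with values from -0.50 to 5.74.

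Of 18 tested chaperones of the receptor complex, 5 at 1 h and 6 at 4 h were higher at an unadjusted p under 0.05 (7.98% and 5.07% of all genes) and 0 were lower (8.67% and 7.35%), with medians of 0.33 and 0.48. Dnaja1, an Hsp40 that loads clients onto Hsp70, was 1.55 higher at 1 h (SE 0.39, adjusted p = 0.21) and 2.23 at 4 h (SE 0.40, adjusted p = 0.0784). Hsp90aa1, the inducible Hsp90, was 1.53 and 1.38 higher (SE 0.53 and 0.52, adjusted p = 0.26 and 0.337). Bag3, a co-chaperone of Hsp70, was 1.31 and 2.32 higher (SE 0.47 and 0.49, adjusted p = 0.27 and 0.116). Hsp90ab1, the constitutive Hsp90, was 0.95 higher at 1 h (SE 0.39, adjusted p = 0.29) and St13, which links Hsp70 to Hsp90, 0.52 higher at 4 h (SE 0.21, adjusted p = 0.36). Without the neuron-rich libraries Hsp90aa1 was at 0.75 and Hsp90ab1 at 0.22 at 1 h. The 16 tested coregulators had medians of -0.020 and 0.12. Hdac2, a histone deacetylase, was at -0.29 at 1 h (SE 0.12, adjusted p = 0.299). Further coregulators were the chromatin remodeller Smarca4 (0.30 at 1 h and 0.28 at 4 h), Ppargc1a (0.55 at 1 h), Ncoa3 (0.44 at 4 h) and Ncoa1 (0.23 at 4 h), all with an unadjusted p of at least 0.207.

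The 12 tested genes of mineralocorticoid action and sodium transport had medians of 0.29 and -0.029. At an unadjusted p under 0.05, 3 were higher at 1 h and 1 at 4 h (7.98% and 5.07% of all genes). At the same threshold 0 and 1 were lower (8.67% and 7.35% of all genes). Atp1b1, a sodium pump subunit, was at 483, 71.4 and 514 CPM at 1 h, at 24.0, 13.1 and 525 CPM at 4 h and at no more than 49.9 CPM in normal SMAs, so its 3 highest libraries were the neuron-rich ones. Its log2 fold change was 3.37 at 1 h (SE 1.45, adjusted p = 0.296) and 2.45 at 4 h (SE 1.39, adjusted p = 0.513), but 1.06 and -0.87 without those libraries. The sodium chloride cotransporter gene Slc12a3 was 2.48 and 2.35 higher (SE 0.81 each, adjusted p = 0.244 and 0.292), from 0.112 to 1.40 CPM in normal SMAs. Sgk3, a kinase related to Sgk1, was at -0.69 and -1.09 (SE 0.40 and 0.41, adjusted p = 0.369 and 0.33). The 9 tested genes of steroid synthesis and handling had medians of 0.22 and -0.43. At an unadjusted p under 0.05, 0 were higher and 0 lower at 1 h (7.98% and 8.67% of all genes). At 4 h, 0 were higher and 2 lower (5.07% and 7.35% of all genes). Akr1c14, a steroid dehydrogenase, was one of them, with a log2 fold change of -1.13 at 4 h (SE 0.33, adjusted p = 0.223), and Abcb1b, a steroid-exporting pump, the other (-1.24, SE 0.54, adjusted p = 0.40). Hsd17b1, which activates estrogen, was at -1.10 and -1.11 (SE 0.68 each, adjusted p = 0.39 and 0.543). Esr1, an estrogen receptor, was at -0.56 and -0.30 (SE 0.57 each, adjusted p = 0.603 and 0.857).

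Of 12 genes that glucocorticoids are known to repress in inflammation, 8 were tested and 0 called. At an unadjusted p under 0.05, 6 of the 8 were higher at 1 h and 4 at 4 h (7.98% and 5.07% of all genes), and the medians were 3.32 and 1.81. Cxcl1, a neutrophil chemokine, was at 1.18, 1.02 and 4.58 CPM in normal SMAs, at 118, 446 and 605 CPM at 1 h, and at 73.0, 204 and 629 CPM at 4 h. All 6 ischemia libraries were above the normal ones (log2 fold change 7.43, SE 1.20, adjusted p = 0.117 at 1 h, and 7.07, SE 1.18, adjusted p = 0.0712 at 4 h). Icam1, a leukocyte adhesion molecule, was 2.86 and 1.95 higher at 1 h and 4 h (SE 0.55 and 0.53, adjusted p = 0.141 and 0.194), and Vcam1, another, 3.21 and 2.45 higher (SE 0.80 and 0.77, adjusted p = 0.21 and 0.254), the latter 1.46 without replicate 3 at 4 h. Sele, the endothelial selectin, was 4.13 higher at 1 h (SE 0.95, adjusted p = 0.188). Il6, an inflammatory cytokine, was at 0, 0.438 and 0.443 CPM in normal SMAs and at 0.827, 2.16 and 81.0 CPM at 4 h, where replicate 3, a neuron-rich library, was far above the rest (log2 fold change 6.61, SE 2.26, adjusted p = 0.291). Without that library the value was 2.40 (SE 1.66).

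Finally, the genes whose log2 CPM ran most like a member over the 9 libraries were listed from 10433 genes of at least 5 CPM on average, as a description only. For Nr3c1 they were Paqr6 (r = 0.933), Btbd7 (0.928), Aprt (0.922) and Tnfsf12 (0.922). For Sgk1 they were Apold1 (r = 0.976), an early response gene of endothelium, Inhbb (0.975), a subunit of activin, Map1lc3b (0.968), an autophagosome protein, and PVR (0.956). For Fkbp5 they were Gnl3 (r = 0.967), Map3k6 (0.965), the protease gene Adamts1 (0.965) and the sphingosine kinase gene Sphk1 (0.964). Those for Zbtb16 were Wasl (r = 0.967), Psmd8 (0.965), Socs6 (0.958) and Psmd9 (0.951), of which Psmd8 and Psmd9 code for proteasome proteins. Those for Tsc22d3 were Zxdb (r = 0.968), Sclt1 (0.935), Chmp1b (0.927) and the repressor gene Bcl6 (0.922). No gene stood on more than 1 of these lists. The points share 3 groups and their depths, so that any gene that differs between the groups can rank high.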

How the data were processed

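Raw counts per gene symbol were deposited for all 9 libraries. Per the labels, Trizol was used for RNA and a standard Illumina protocol for libraries, which ran on a HiSeq X instrument, and the submitters' processing notes name HISAT2. The counting program, genome build, annotation and use of strand are not given in the sources used here, and the paper's methods describe arrays for these samples. Series text gives 3 rats per group. In the paper's methods rats were killed at the end of ischemia and the vessel was then removed, so the same rat would not serve at both ischemia times. Those methods also speak of 3 individuals for the 9 samples, and what the replicate numbers stand for is not settled. The p-values measure the spread between these libraries.

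Counts were tested in R 4.3.3 with edgeR 4.0.16 (filterByExpr, TMM, quasi-likelihood F-test with group as the only term, all 9 libraries, Benjamini-Hochberg over 15482 genes). DESeq2 1.42.0, other scalings and filters, single libraries left out and marker scores as covariates were alternatives. Scripts were tested on simulated data. All members were named, with up to 4 genes by smallest p per other list and contrast and the 4 most similar genes to 5 members. Some genes this rule picks are not reported here. Members and lists were chosen with earlier results of these data known. Promoter windows came from RefSeq GRCr8, and motif matches used no count data.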

Additional observations from a re-analysis of the deposited data

How the results depend on the processing

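The number of called genes depended most on the test. At 1 h it went from 9 to 702 with DESeq2, 4 with only the 2 groups compared and 34 with the adipocyte score as a covariate, and it was 0 to 11 when single libraries were left out. At 4 h it went from 14 to 610 with DESeq2, 4 with only 2 groups, 112 with the neuron score, 98 with the adipocyte score and 7 with the replicate block, and 1 to 14 without single libraries. DESeq2 called 3 members at each time, and the adipocyte covariate 1 at 4 h (Sgk1, adjusted p = 0.0477). Members at an unadjusted p under 0.05 were 5 at 1 h with library size only, 3 to 4 at 1 h and 3 to 5 at 4 h without single libraries, and for 4 h against 1 h they were 1 with the replicate block (Nr3c2) and 0 to 1 without single libraries. Same-number deviations correlated from -0.651 to 0.66, and the best match had the same number in 7 of 18 cases. This gave no sign that replicate numbers pair the libraries. It cannot settle the question, because marker levels of several cell types also differed between libraries. With the block Fkbp4 also had an unadjusted p under 0.05, 0.0243 at 1 h and 0.0216 at 4 h. No member was called with the block, as without it, but Nfkbia (adjusted p = 0.17 at 1 h and 0.0782 at 4 h) and Mt1a (0.0596 at 1 h) lost theirs.

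Over all alternatives, 396 values of a member kept their direction and their side of the threshold, 7 newly passed it and 29 changed sign. Nr3c2 at 1 h was 0.24 with the neuron score, 0.13 with the adipocyte score and 0.25 without the 3 neuron-rich libraries. Hsd11b1 was -0.16 to 0.45 at 1 h without single libraries, and at 4 h -0.036 with library size only and -0.13 to 0.35. Among other genes, Esr1 was 0.49 with the neuron score and 0.14 with the adipocyte score at 1 h, and at 4 h 0.11 without the neuron-rich libraries and -0.86 to 0.12 without single ones. Without the neuron-rich libraries Ppargc1a was -0.47 and Smarca4 -0.091 at 1 h, and Atp1b1 was -0.87 at 4 h (-0.89 to 3.00 without single libraries). Cyp11b2 at 1 h was -0.41 with the neuron score. For 4 h against 1 h, Hsd11b1 was -0.19 with library size only, -0.0051 with 2 groups, -0.17 with the neuron score, -0.29 without the neuron-rich libraries and -0.28 to 0.34 without single ones. Zbtb16 was -0.022 with library size only, -0.43 with the neuron score, -0.79 with the adipocyte score, -0.50 without the neuron-rich libraries and -0.095 to 0.73 without single ones. Fkbp4 was -0.20 with library size only, -0.016 with 2 groups, -0.021 with the adipocyte score and -0.24 to 0.26. Tsc22d3 was -0.046 with library size only, -0.11 with the neuron score and -0.046 to 0.41, and Fkbp5 -0.68 to 0.070. Library size alone moved the median of all genes to -0.149 at 4 h and -0.239 for 4 h against 1 h. The causes were not tested. With 3 libraries a group and a biological coefficient of variation of 51.6%, differences of the size seen for the receptors were not resolved, and Hsd11b2 was limited by depth.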

Other observations

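Cyp11b2, the aldosterone synthase gene, is best known from the adrenal cortex. It had 10, 0 and 3 counts in normal SMAs, 153, 8 and 87 counts at 1 h, and 0, 0 and 54 counts at 4 h. Its 3 highest libraries were those rich in sympathetic neuron transcripts, and its log2 fold change at 1 h was 4.27 (SE 1.95, adjusted p = 0.308). The 4 adrenal cortex markers found in the table, Cyp11b2 among them, summed to 1.77 to 6.05 CPM in normal SMAs, 3.08 to 15.2 at 1 h and 2.23 to 7.33 at 4 h. The 4 chromaffin cell markers summed to 3.28 to 44.1 CPM, 50.3 to 534 and 5.06 to 438 CPM. No explanation of these levels was tested.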
